A study of Mus musculus with 2 samples.

Results

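The miR-192, miR-194 and miR-215 genes of the mouse are 4 microRNA genes, Mir192, Mir194-2, Mir215 and Mir194-1, which lie in pairs at 2 loci. They were chosen by name, as the rows whose Ensembl identifier maps to one of these genes, and are 4 of the 1973 genes in each table and 4 of the 363 with at least 10 counts in both libraries. Small RNA, with inserts under 30 bases, was sequenced from the intestine of mouse embryos of strain B6NCrl at 14.5 days of development, in 2 libraries called biological replicates 1 and 2. The labels name no treatment, mutation or second condition, so that both libraries form 1 group and no condition was compared. The labels describe each as 1 intestine of 1 pup, yet also give pooled sexes, and enter the same donor for both. Replicate 2 was collected on day 15 of the month and replicate 1 on day 17, and the effects of day and replicate cannot be told apart.

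A microRNA is cut as a short duplex from a hairpin in a longer transcript, and the arm that is loaded into Argonaute guides it to messenger RNAs through the seed, bases 2 to 8 from its 5′ end. The members of this group are known from the epithelium of the gut, and also from liver and kidney. In human cells miR-192 and miR-215 are induced by p53 and slow the cell cycle, and miR-194 rises as intestinal cells differentiate.

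The 5p arms show how the 4 genes fall into 2 families. Capitals mark the seed in these mature sequences from the RefSeq table for GRCm38.p6.
mmu-miR-192-5p: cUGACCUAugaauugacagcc
mmu-miR-215-5p: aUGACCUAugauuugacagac
mmu-miR-194-5p: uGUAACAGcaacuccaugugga
The seed UGACCUA was held by miR-192-5p and miR-215-5p and by no other of the 1738 mature entries in that table, and GUAACAG by the 2 entries of miR-194-5p alone. miR-192-5p and miR-215-5p are identical at 18 of 21 positions. Counted from 1 at the 5′ end, with the base of miR-192-5p first, they differ by C1A, A12U and C20A, all outside the seed.

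The 2 genes of miR-194 carry the same 5p arm in different surroundings. Capitals mark miR-194-5p within each hairpin, with 4 bases on either side.
Mir194-2: ccucUGUAACAGCAACUCCAUGUGGAagug
Mir194-1: cgggUGUAACAGCAACUCCAUGUGGAcugu
The longest stretch that both hairpins share is 22 bases, exactly this mature arm, and the bases directly before and after it differ between the loci. A read of the mature arm alone therefore matches both places, whereas a read with 1 more base of either hairpin matches 1 of them. Of the 20-base windows of these hairpins, 3 of 67 in Mir194-2 and 3 of 48 in Mir194-1 were found in the other gene. No window of Mir192 (70) or Mir215 (93) was found in another hairpin or in a transcript from another place. The 3p arms of the miR-194 genes can be told apart, and capitals again mark the seed.
mmu-miR-194-2-3p: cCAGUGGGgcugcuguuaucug
mmu-miR-194-1-3p: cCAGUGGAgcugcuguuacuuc
With the base of miR-194-1-3p first, they differ by A8G, C19U, U20C and C22G, of which A8G lies in the seed. The tables give 1 count per hairpin and do not divide it between the arms. Reads with several alignments were given to no gene, so the counts of Mir194-1 and Mir194-2 can be too low, by an unknown amount. Their levels and ranks are uncertain, and so is every sum or ratio that holds them.

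Each locus holds 1 miR-194 gene upstream of a gene of the other family, all on the plus strand of GRCm38. On chromosome 19, Mir194-2 (chr19:6264643-6264728) and Mir192 (chr19:6264844-6264932) are 115 bases apart and overlap no other annotated gene. Atg2a, an autophagy gene on the same strand, ends 2307 bases before Mir194-2. On chromosome 1, Mir194-1 (chr1:185313319-185313385) and Mir215 (chr1:185313581-185313692) are 195 bases apart. There the noncoding gene 2010103J01Rik runs on the same strand, with Mir194-1 in its intron and Mir215 in its exon 2. Both also lie within an intron of Iars2, the mitochondrial isoleucyl-tRNA synthetase gene, which is on the opposite strand.

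**Figure D1:**
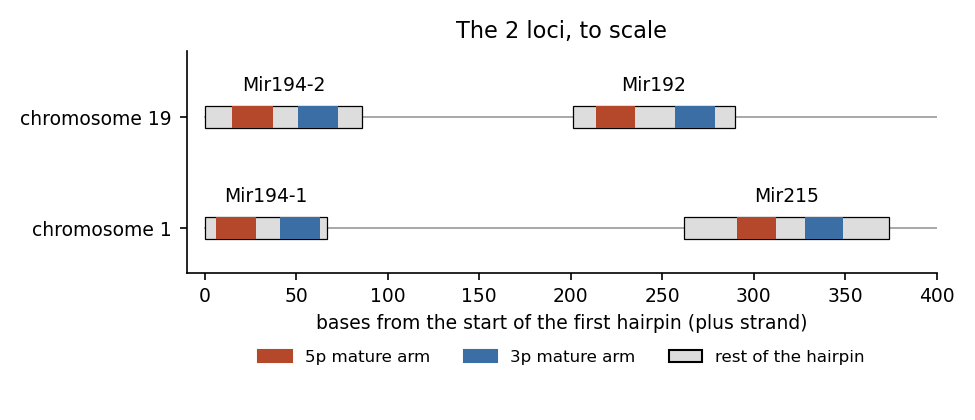
The 2 loci drawn to scale, with distance in bases from the start of the first hairpin on the x axis. Boxes are hairpins and coloured parts their 5p and 3p mature arms. In both loci the miR-194 hairpin comes first, 115 bases before Mir192 on chromosome 19 and 195 bases before Mir215 on chromosome 1.

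All 4 genes were well above the limit of detection in both libraries. Levels are CPM, the counts on the gene's own strand scaled to a library total of 1000000. Those totals were 3903472 in replicate 2 and 15090126 in replicate 1, which was 3.87 times deeper, and 3 counts correspond to 0.769 and 0.199 CPM in these libraries. A read of this length covers a whole microRNA, so counts were not divided by length. Ligation and PCR favour some sequences over others, so CPM of different genes compare reads and not molecules.

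Of the miR-192 and miR-215 family, Mir215 (ENSMUSG00000065562.1) had 15435 counts or 3954 CPM in replicate 2 and 44256 counts or 2933 CPM in replicate 1, a mean of 3443 ± 722 CPM (SD, n = 2). Mir192 (ENSMUSG00000065523.1) had 13838 counts or 3545 CPM in replicate 2 and 48633 counts or 3223 CPM in replicate 1, a mean of 3384 ± 228 CPM. The ranges of Mir215 and Mir192 overlapped, and their order changed between the libraries. Of the miR-194 family, Mir194-2 (ENSMUSG00000065582.1) had 11425 counts or 2927 CPM in replicate 2 and 33253 counts or 2204 CPM in replicate 1, a mean of 2565 ± 511 CPM. Mir194-1 (ENSMUSG00000065581.1) had 3655 counts or 936 CPM in replicate 2 and 9360 counts or 620 CPM in replicate 1, a mean of 778 ± 223 CPM. Mir194-2 lay below Mir192 and Mir215 in both libraries without overlap of the ranges, though its 2927 CPM in replicate 2 was close to the 2933 CPM of Mir215 in replicate 1. Mir194-1 was the lowest member in both libraries. Reads left out for several alignments can lower both miR-194 genes in this order.

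**Figure D2:**
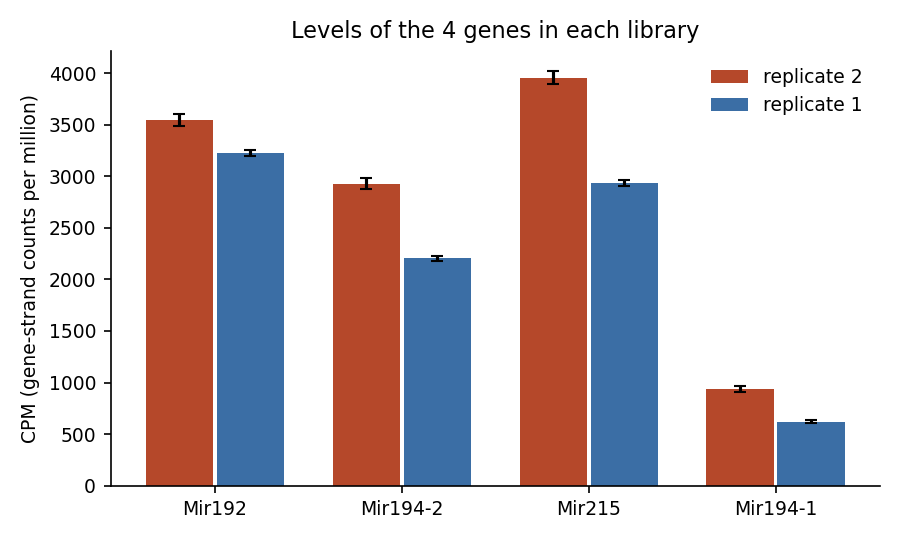
Gene-strand CPM on the y axis for each gene in replicate 2 (left bar) and replicate 1 (right bar), with Wilson 95% counting intervals. Every gene was higher in replicate 2, and Mir194-1, at 936 and 620 CPM, was the lowest of the 4 in both.

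Together the 4 genes took 1.14% of the gene counts in replicate 2 (44353 counts, Wilson 95% interval 1.13 to 1.15%) and 0.898% in replicate 1 (135502 counts, 0.893 to 0.903%). Such intervals cover counting error only. Mir215 made up 34.8% of the members' counts in replicate 2 and 32.7% in replicate 1, and Mir192 31.2% and 35.9%. Mir194-2 made up 25.8% in replicate 2 and 24.5% in replicate 1, and Mir194-1 8.24% and 6.91%. By seed, the miR-192 and miR-215 genes held 66.0% and the miR-194 genes 34.0% in replicate 2, against 68.6% and 31.4% in replicate 1. The miR-194 shares can be too low, as reads with several alignments were left out. By place, the chromosome 19 locus held 57.0% in replicate 2 and 60.4% in replicate 1.

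Among the 363 detected genes the group stood among the 110 most abundant, with Mir215 at rank 55, Mir192 at 56, Mir194-2 at 65 and Mir194-1 at 110 by mean CPM. In replicate 2 these ranks were 51, 56, 61 and 103, and in replicate 1 they were 59, 57, 68 and 118. Each member overlapped its neighbours in this order. The ranges over the 2 libraries overlapped between Mir215 and Mir92-1 above it (3583 CPM in replicate 2 and 3316 CPM in replicate 1). The same held between Mir192 and Mir382 below it (3465 and 3296 CPM), and between Mir194-2 and both Mir15a (2707 and 2513 CPM) and Mir183 (2615 and 2501 CPM). Mir194-1 overlapped Mir188 (801 and 778 CPM) and Mir674 (729 and 776 CPM). Reads with several alignments were given to no gene, which can also lower other genes that have copies elsewhere. The ranks and shares of the members therefore hold among assigned reads only, and could be lower if such reads were counted.

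**Figure D3:**
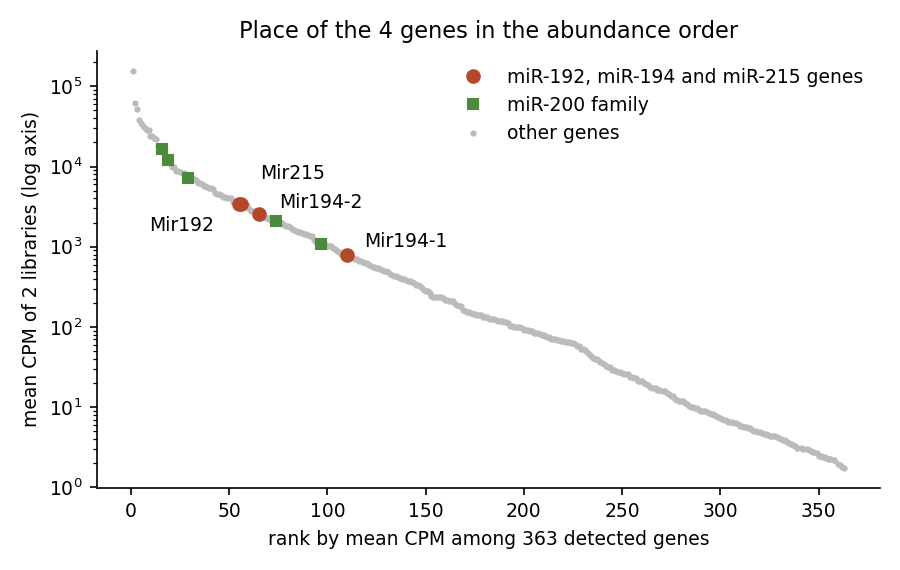
Mean CPM of the 2 libraries on a log axis against rank among the 363 detected genes. The miR-192, miR-194 and miR-215 genes (circles) stand at ranks 55, 56, 65 and 110, and the miR-200 family (squares) between ranks 16 and 97.

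The genes most like each member in level were taken by the Euclidean distance of log2(CPM + 1) over the 2 libraries, a measure that with 2 libraries reflects level far more than pattern. For Mir192 they were Mir92-1, Mir382 and Mir423, at distances of 0.0440 to 0.0576. For Mir215 they were Mir298 (0.170), Mir92-1 and Mir382. For Mir194-2 they were Mir15a, Mir183 and Mir455, at 0.220 to 0.277, and for Mir194-1 they were Mir31, Mir503 and Mir210, at 0.370 to 0.373.

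Genes of the same locus did not have equal assigned counts, and the miR-194 gene was the lower one at both. Reads of the shared miR-194-5p arm with several alignments are missing from these counts. That loss runs in the same direction, and its size is not known. On chromosome 19 the log2 ratio of Mir194-2 over Mir192 was -0.28 in replicate 2 (exact 95% counting interval -0.31 to -0.24) and -0.55 in replicate 1 (-0.57 to -0.53). On chromosome 1 Mir194-1 over Mir215 was -2.08 in replicate 2 (-2.13 to -2.03) and -2.24 in replicate 1 (-2.27 to -2.21), so that Mir215 had 4.22 and 4.73 times the counts of its neighbour. The gap within the chromosome 1 pair exceeded that within the chromosome 19 pair in both libraries.

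Between the loci, Mir194-1 over Mir194-2 was -1.64 in replicate 2 (-1.70 to -1.59) and -1.83 in replicate 1 (-1.86 to -1.80). Mir215 over Mir192 was 0.16 in replicate 2 (0.12 to 0.19) and -0.14 in replicate 1 (-0.15 to -0.12), so the counting intervals excluded equality in opposite directions, and the mean of 0.01 ± 0.21 (SD, n = 2) was smaller than the gap of 0.29 between the libraries. The sum of the chromosome 1 locus over that of the chromosome 19 locus was -0.40 in replicate 2 and -0.61 in replicate 1. The steadiest of the 6 pairs was Mir194-2 over Mir215, at -0.43 in replicate 2 and -0.41 in replicate 1, and the most changed was Mir194-1 over Mir192, at -1.92 and -2.38. For 5 of the 6 pairs the mean ratio was larger than its gap between the libraries, and Mir215 over Mir192 was the exception. No p was computed for these ratios.

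**Figure D4:**
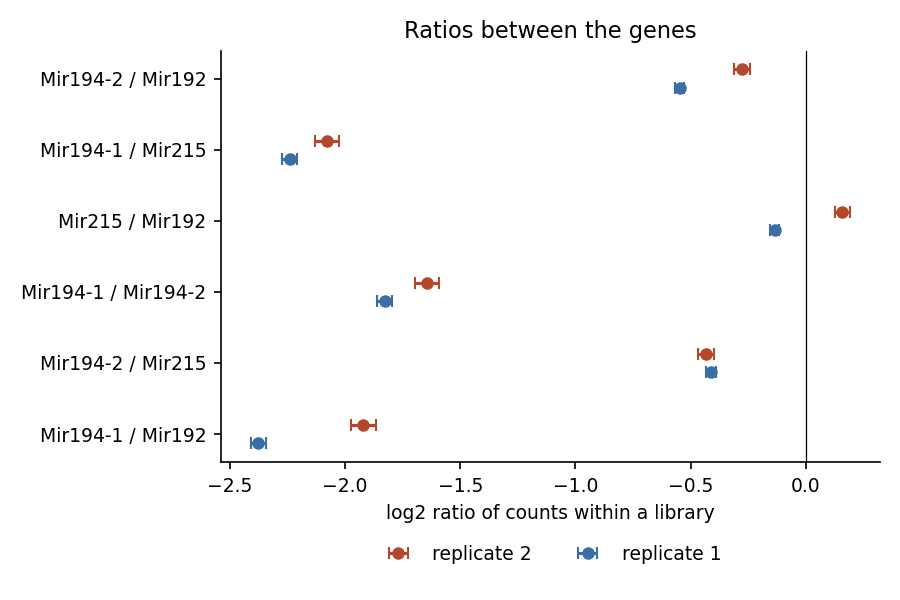
Log2 ratio of counts within each library on the x axis for the 6 pairs of genes, with exact 95% counting intervals. Mir215 over Mir192 lies on opposite sides of 0, at 0.16 in replicate 2 and -0.14 in replicate 1, while the other pairs lie below 0 in both.

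Every member was higher in replicate 2, by log2 differences of 0.14 to 0.59. For each detected gene, an exact binomial test (two-sided) asked whether its counts split as the library totals did, with p adjusted by Benjamini-Hochberg over all 363 genes. This compares these 2 libraries only and takes no account of the spread between embryos, which 1 library a side cannot give. Mir194-1 was 1.51-fold higher (log2 0.59, counting interval 0.54 to 0.65, adjusted p = 1.23e-91 by the exact test). Mir215 was 1.35-fold higher (log2 0.43, 0.40 to 0.46, adjusted p = 7.72e-212 by the exact test) and Mir194-2 1.33-fold (log2 0.41, 0.38 to 0.44, adjusted p = 1.12e-142 by the exact test). Mir192 was higher by less (log2 0.14, 0.11 to 0.16, adjusted p = 7.70e-22 by the exact test).

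All 4 members were called higher in replicate 2, as were 108 of the 363 genes (29.8%), while 51 (14.0%) were called lower. Abundant genes pass such a test more easily. Among the 195 genes with a mean of at least 100 CPM, tested by themselves, 88 (45.1%) were called higher and 49 (25.1%) lower. The median log2 difference was 0.42 for the members and 0.06 over all tested genes. At least 25% higher and past the test were 3 of the 4, all but Mir192, against 30 of 363 genes (8.26%). The scaling sets how the calls divide. With edgeR TMM factors 58 genes were called higher and 84 lower, and with upper-quartile factors 48 and 104. All 4 members were still called higher with TMM, but with upper-quartile factors, which shift the log2 differences by -0.11, Mir192 was at 0.03 with an adjusted p of 0.0538 by the exact test.

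Within each locus the miR-194 gene differed more between the libraries than its neighbour, by 0.27 in log2 on chromosome 19 and 0.16 on chromosome 1. Between the loci the chromosome 1 gene differed more, by 0.29 for Mir215 over Mir192 and 0.18 for Mir194-1 over Mir194-2. These gaps do not depend on the library totals. Those with a miR-194 gene, like that gene's own difference, can depend on how many of its reads had several alignments. Whether that share differed between the libraries was not tested. Over all 363 tested genes, Mir194-1 ranked 28 by log2 difference, Mir215 39, Mir194-2 45 and Mir192 128. Among the 195 genes with a mean of at least 100 CPM, Mir194-1 ranked 3, Mir215 7, Mir194-2 9 and Mir192 47. In this smaller set, the endocrine Mir375 (log2 1.20) and the red cell gene Mir451a (0.69) were ahead of Mir194-1. Between Mir194-1 and Mir194-2 stood Mir7-1 (0.52), Mir200c (0.47), Mir148a (0.46) and Mir141 (0.43), beside Mir215. Of these, Mir7-1 and Mir148a lie outside the naming rule and were named after their values were seen. All genes from Mir194-2 at rank 9 to Mir192 at rank 47 stood between these members too and are not named.

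**Figure D5:**
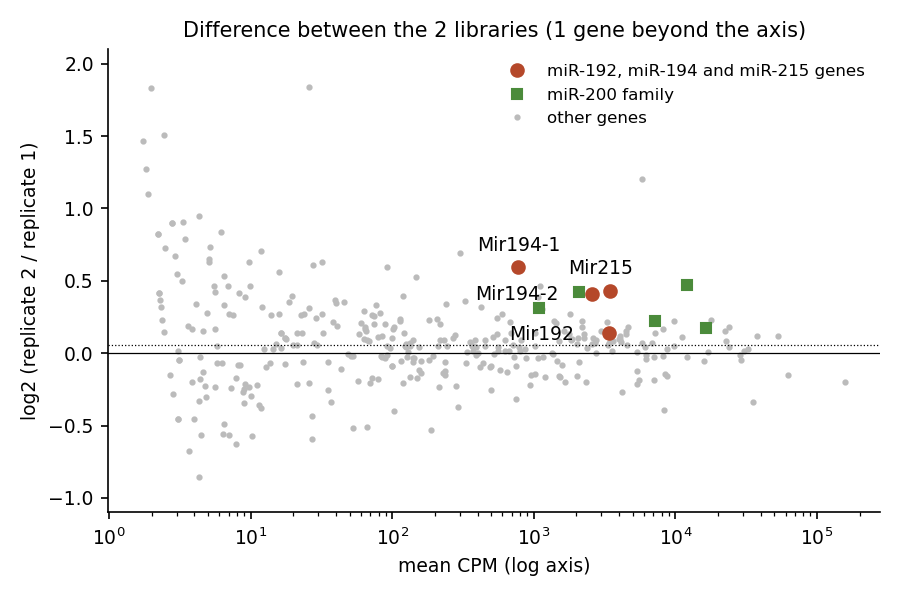
Log2 of replicate 2 over replicate 1 against mean CPM on a log axis for the 363 detected genes, with the median of all genes as a dotted line and 1 gene beyond the axis. The miR-192, miR-194 and miR-215 genes (circles) lie between 0.14 and 0.59 and the miR-200 family (squares) between 0.17 and 0.47, all above the median of 0.06.

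Another set of epithelial microRNAs, the miR-200 family, was also higher in replicate 2. This family represses Zeb1 and Zeb2 and so helps to keep cells epithelial. All 5 of its genes were called higher (background 29.8%, or 45.1% among genes of at least 100 CPM). Their median log2 difference was 0.32, against 0.06 over all genes. Mir200c was at 14105 CPM in replicate 2, against 10177 CPM in replicate 1 (log2 0.47), and Mir141 2392 and 1781 CPM (0.43). Mir200a had 1209 and 972 CPM (0.32), Mir200b 7767 and 6657 CPM (0.22) and Mir429 17419 and 15441 CPM (0.17). These epithelial markers were thus present in the tissue, at 4.29% of the counts in replicate 2 and 3.50% in replicate 1.

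The sum of the miR-192, miR-194 and miR-215 genes was 0.265 times the miR-200 sum in replicate 2 and 0.256 times in replicate 1, a log2 change of 0.05. Against the smooth muscle genes Mir143, the most abundant gene of the table, and Mir145a, their sum was 0.0759 times in replicate 2 and 0.0523 times in replicate 1, a change of 0.54. In whole tissue, fewer epithelial cells and less of these RNAs per cell cannot be told apart.

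Genes of some other cell type lists were also called higher in replicate 2, to be read against the 29.8% of all tested genes called higher and 14.0% called lower, and their part in the difference of the members was not tested. Of the enteroendocrine and pancreatic list, 6 of 7 genes were tested and all 6 were called higher. The list summed to 0.894% of the counts in replicate 2 and 0.417% in replicate 1, most of it from Mir375 (8059 and 3497 CPM). The lowest of the 6 rested on 12 counts in replicate 2 and 13 in replicate 1. All 3 genes of stratified epithelium, Mir203, Mir205 and Mir31, were called higher, with sums of 0.620% and 0.558%, but 2 of the 3 with TMM, RLE and median-ratio scaling. Mir122 of liver was called higher (51.0 and 39.8 CPM), but not with TMM or RLE factors. Of 3 erythroid genes 1 was called higher (sums 0.0409% and 0.0258%), and of 3 leukocyte genes 2 (0.0557% and 0.0448%), or 1 with these scalings. Of 8 neuronal genes 3 of the 4 tested were called higher (0.244% and 0.214%), or 1 to 2 with these scalings. Mir124a-2, Mir124a-3 and Mir9-2 were at 0 in both libraries. Reads with several alignments were given to no gene, so a 0 for such numbered copies does not show absence. Of the smooth muscle pair, Mir143 was called lower (146045 and 167962 CPM), and Mir145a was at 3597 and 3567 CPM with an adjusted p of 0.512 by the exact test, although it too was called lower with TMM, RLE and median-ratio scaling.

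Mesenchymal genes were called in both directions, with Mir214 higher (10600 and 9071 CPM) and Mir199b lower (482 and 514 CPM). The endothelial Mir126a was called higher (24174 and 23478 CPM), a log2 difference of 0.04, but lower with TMM, RLE and median-ratio scaling. Of the p53-responsive miR-34 genes, which in human cells share their inducer with miR-192 and miR-215, none was called higher. Any part of p53 in the difference of the members was not tested. Mir34c was at 721 CPM in replicate 2, against 694 CPM in replicate 1 (log2 0.05, adjusted p = 0.145 by the exact test) and Mir34a 158 and 163 CPM (-0.05, adjusted p = 0.560 by the exact test). Mir34b was called lower, at 23.1 and 31.1 CPM (log2 -0.43). Of the 5 striated muscle genes, Mir206 alone was tested and not called (8.97 and 10.5 CPM), and Mir133a-1 was at 0 in both. That 0 does not show absence either, as reads with several alignments were left out.

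The counts of the 4 genes came from their own strand. Mir192, Mir194-2 and Mir215 had no count on the opposite strand in either library, which allows at most 0.0263% of a gene's counts in replicate 2 and 0.00902% in replicate 1. Mir194-1 had 1 opposite-strand count in replicate 2 and 2 in replicate 1, below the 3 counts taken as the limit. Of the 363 detected genes, 41 (11.3%) had any. The only other gene in the table whose mature sequence shares a seed with a member, through the 3p arm of Mir194-2, was Mir6926, with 0 counts in replicate 2 and 7 in replicate 1.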

How the data were processed

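The values deposited are raw counts, whole numbers for each gene. Column meanings were read from the values: the first count is the sum of a sense and an antisense count in every gene row, and the sense counts were used. Per the file headers, meaning the text records deposited with the tables, the build was mm10 and the gene models GENCODE M4. The aligner, trimming and counting program are not given in the sources used here. Rows that name no gene stayed out of totals and tests. In replicates 2 and 1 they held 13.8% and 12.4% of reads as unaligned, 26.6% and 26.5% with several alignments, and 3.88% and 3.90% on no gene's own strand. Symbols and positions came from GENCODE M21 (1894 of 1973 identifiers found, the members with the same version) and sequences from RefSeq tables (all 4 members matched). Windows of 20 bases were searched in hairpins and transcripts, and no genome sequence was used.

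From the counts, CPM, exact binomial tests with Benjamini-Hochberg adjustment at 0.05 across all genes with at least 10 counts in both libraries, and Wilson or Clopper-Pearson 95% intervals were computed in Python 3.11.15 with scipy 1.17.1. Scaling factors came from edgeR 4.0.16. The test was run on simulated counts that held counting error only, which cannot check it against spread between embryos or PCR duplicates. Counts hold no molecular identifiers, so p-values and intervals cover counting error of these 2 libraries, and the labels number a pregnancy and give a collection day for each pup. The naming rule took the members, the miR-200 family, the 3 genes nearest each member in level, rank neighbours, seed-sharing genes, Mir143 and the leading gene of each of 12 lists. Mir7-1, Mir148a, Mir205, Mir145a, Mir199b, Mir34a, Mir34b and the list genes at 0 were named after their values were seen. Members and lists were chosen with earlier results of these data known. Mir142, Mir9-1 and Mir1a-2 of the lists were not analysed here. Alternatives covered strand, totals, scaling, count minimum and depth.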

Additional observations from a re-analysis of the deposited data

How the results depend on the processing

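Of 182 recomputed values, 147 stayed within the spread between the libraries, on the same side of the threshold or, for counts, within 1.5 times. That number is no measure of robustness. Leaving out 1 of 2 libraries always keeps a level or ratio within that spread, so these values, Mir215 over Mir192 among them, could not count as moved. A change of the count minimum likewise leaves the log2 difference of a member as it was. Directions did change for Mir126a of endothelium, called higher as reported and lower with TMM, RLE and the median log2 ratio, and for Mir215 over Mir192, at a mean log2 ratio of 0.01 and at 0.16 without replicate 1 and -0.14 without replicate 2. With all reads of the table as the total, Mir192, Mir194-2, Mir215 and Mir194-1 were at 1910, 1446, 1941 and 438 CPM and their sum at 0.574%. Without Mir143 in the total, Mir192 was at 4012 CPM and the sum at 1.20%. Without Mir194-1 and Mir194-2 the sum was 0.683%. With upper-quartile scaling the log2 difference of Mir192 was 0.0317 and past the threshold no longer (adjusted p = 0.0538 by the exact test). Genes called higher in replicate 2 numbered 58 with TMM, 54 with RLE and 48 with upper-quartile factors, against 108. Those called lower numbered 84, 90 and 104, and 77 with the median log2 ratio, against 51. Genes at least 25% higher numbered 19, 17 and 15 with TMM, RLE and upper-quartile factors and 13 among genes of at least 100 CPM, against 30. Of the members, 2 rather than 3 passed that rule with RLE and upper-quartile factors. Across the 8 settings, the log2 differences ran from 0.03 to 0.14 for Mir192, 0.30 to 0.41 for Mir194-2, 0.33 to 0.43 for Mir215 and 0.49 to 0.59 for Mir194-1. With TMM and RLE, calls moved to 0 higher for the liver list, 2 lower for smooth muscle, 0 higher and 1 lower for endothelium, 1 higher for leukocytes and 2 higher for stratified epithelium. The median log2 ratio gave the same numbers for all of these but liver, which stayed at 1 higher. The neuronal list was at 2 higher with TMM and the median log2 ratio and at 1 with RLE. The other 6 lists had the same counts of calls under these scalings. The scaling itself subtracts a constant from each log2 difference, which lowers the number called higher. No paired analysis was possible because the series holds 1 group. Reads with several alignments limit the miR-194 genes in a way that no setting recovers.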
